A study of Mus musculus with 2 samples.

Results

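The endothelin system of cultured mouse sensory ganglia was followed through 6 genes: the receptors Ednrb and Ednra, the ligand genes Edn1 and Edn3, and the converting enzymes Ece1 and Ece2. The members were found by gene symbol and are 6 of the 31053 genes in the count matrices. The family was chosen by a measured value of these same cells, the level of Ednrb, which an earlier pass over the libraries had shown to be higher in the resting glial cluster low in satellite genes. The members' levels are therefore given as a description and without tests. Dorsal root ganglion (DRG) cells were cultured so that satellite glial cells (SGCs), which wrap the neuronal cell bodies, could be compared in vitro and after acute isolation. Ganglia of all spinal levels dissected (cervical to lumbar) from Swiss mice aged 2 weeks, males and females, were digested with collagenase and dispase. The cells were kept for 3 days on laminin and then detached with trypsin. A pair of droplet libraries, A and B, was sequenced from this single uninjured condition, so there is no treated group and no freshly isolated control among the samples used here.

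Endothelins are short peptides with several disulfide bonds that are cut from longer precursors, first by furin-type proteases and then by the endothelin converting enzymes. They act on a pair of G protein-coupled receptors. The A type is known from vascular smooth muscle and mesenchymal cells and prefers endothelin-1, while the B type binds all endothelins alike. Edn3 and Ednrb are needed in the embryo for neural crest cells that form enteric neurons and melanocytes, and Ednrb is an established gene of peripheral glia, where its activation has been linked to gap junction coupling.

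Of 10948 barcodes, 10730 had at least 200 genes and at most 10% mitochondrial counts and were kept, 5066 in library A and 5664 in library B, with median depths of 5270 and 4825.5 unique molecular identifiers (UMIs, counted transcripts). Clustering without the members gave 9440 glia, 812 neurons, 395 fibroblasts and 83 macrophages, each class carrying UMIs of all of its naming markers. Other classes carried UMIs of most of these markers too, so their presence does not tell the classes apart. The summed level of each list was highest in the class that it named. Glia fell into 5 clusters. Cluster 0 (3516 cells) was the resting cluster highest in satellite genes, which summed to 12542 ± 216 CPM (a gene's UMIs scaled to a total of 1000000 UMIs in each group and library; mean ± SD, n = 2 libraries), and cluster 2 (2000 cells) was the resting cluster lowest in them, at 2392 ± 3.33 CPM. Clusters 1 (2306 cells, led by histone genes), 3 (1032 cells, led by replication genes such as Mcm3) and 4 (586 cells, led by the mitosis genes Cenpf and Ccnb1) were proliferating. The libraries are taken as replicates, but nothing says that they came from separate cultures or animals, so the spread between them may be technical. They shared 8 barcodes.

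Sequences of the receptor promoters and of the ligands' coding parts show what the members are. The receptor genes lie on different chromosomes of the mouse genome (GRCm38), Ednrb (ENSMUSG00000022122) on the minus strand at chr14:103814625-103844402 and Ednra (ENSMUSG00000031616) on the minus strand at chr8:77663031-77724464, where it overlaps 4933431K23Rik on the other strand. Their 300-base windows around the RefSeq transcription start (build GRCm38.p6, minus strand, chr14:103843652-103843951 for Ednrb and chr8:77724403-77724702 for Ednra) are shown because the receptors were high in different cell classes of these cultures. By the gene positions above, the Ednrb window lies inside the gene, downstream of its start at 103844402. The Ednra window spans the start of its gene at 77724464. Which stretch counts as the Ednrb promoter thus depends on the annotation used. Capitals mark the letters CCAAT on either strand.
Ednrb: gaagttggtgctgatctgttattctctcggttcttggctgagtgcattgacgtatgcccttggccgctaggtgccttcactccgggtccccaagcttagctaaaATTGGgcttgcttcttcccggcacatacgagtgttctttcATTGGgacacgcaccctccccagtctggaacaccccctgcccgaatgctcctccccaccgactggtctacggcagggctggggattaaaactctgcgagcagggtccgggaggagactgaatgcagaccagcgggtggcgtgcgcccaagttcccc
Ednra: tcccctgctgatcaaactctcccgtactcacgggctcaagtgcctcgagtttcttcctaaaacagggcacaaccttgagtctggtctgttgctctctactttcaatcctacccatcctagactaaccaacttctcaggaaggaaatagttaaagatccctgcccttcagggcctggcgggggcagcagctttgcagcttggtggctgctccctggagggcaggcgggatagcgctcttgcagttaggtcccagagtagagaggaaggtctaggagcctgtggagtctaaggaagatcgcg
The Ednrb window held 2 matches to CCAAT and the Ednra window 0, and 37.9% of all 27025 promoter windows held at least 1. Neither window held TATAAA, which 14.2% of windows hold. Neither held ACAAAG (18.7% of windows) or ACAAT (31.6% of windows), letters that SOX factors such as Sox10 can bind. All letters were searched on both strands, and these matches are letters in a window and not shown to be binding sites.

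The ligand genes code for mature peptides of 21 residues. The coding bases of the Edn1 peptide lie in exon 2 of its transcript, on the plus strand at chr13:42303649-42303711, and those of the Edn3 peptide in exon 2 at chr2:174761749-174761811, also on the plus strand. They are shown with the 4 cysteine codons, which form the disulfide bonds, in capitals.
Edn1: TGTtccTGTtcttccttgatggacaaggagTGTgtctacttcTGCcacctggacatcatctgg
Edn3: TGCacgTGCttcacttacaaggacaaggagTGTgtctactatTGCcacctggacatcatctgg
The peptides share 15 of 21 residues and 50 of 63 coding bases. The 3' libraries count transcript ends, so these stretches are what the transcripts encode and not where the reads fell.

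Ednrb was a gene of the glia in these cultures. It reached 265 CPM in the glia of library A (6732 UMIs) and 263 CPM in those of library B (6921 UMIs), a mean of 264 ± 1.33 CPM. Fibroblasts were at 8.41 CPM in A and 10.3 CPM in B, neurons at 20.7 CPM in A and 28.5 CPM in B, and macrophages at 95.1 CPM in A and 45.8 CPM in B. The classes did not overlap between libraries in the order glia, macrophages, neurons, fibroblasts. The lowest level in any of the 5 glial clusters was 201.5 CPM, in cluster 3 of library B.

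**Figure D1:**
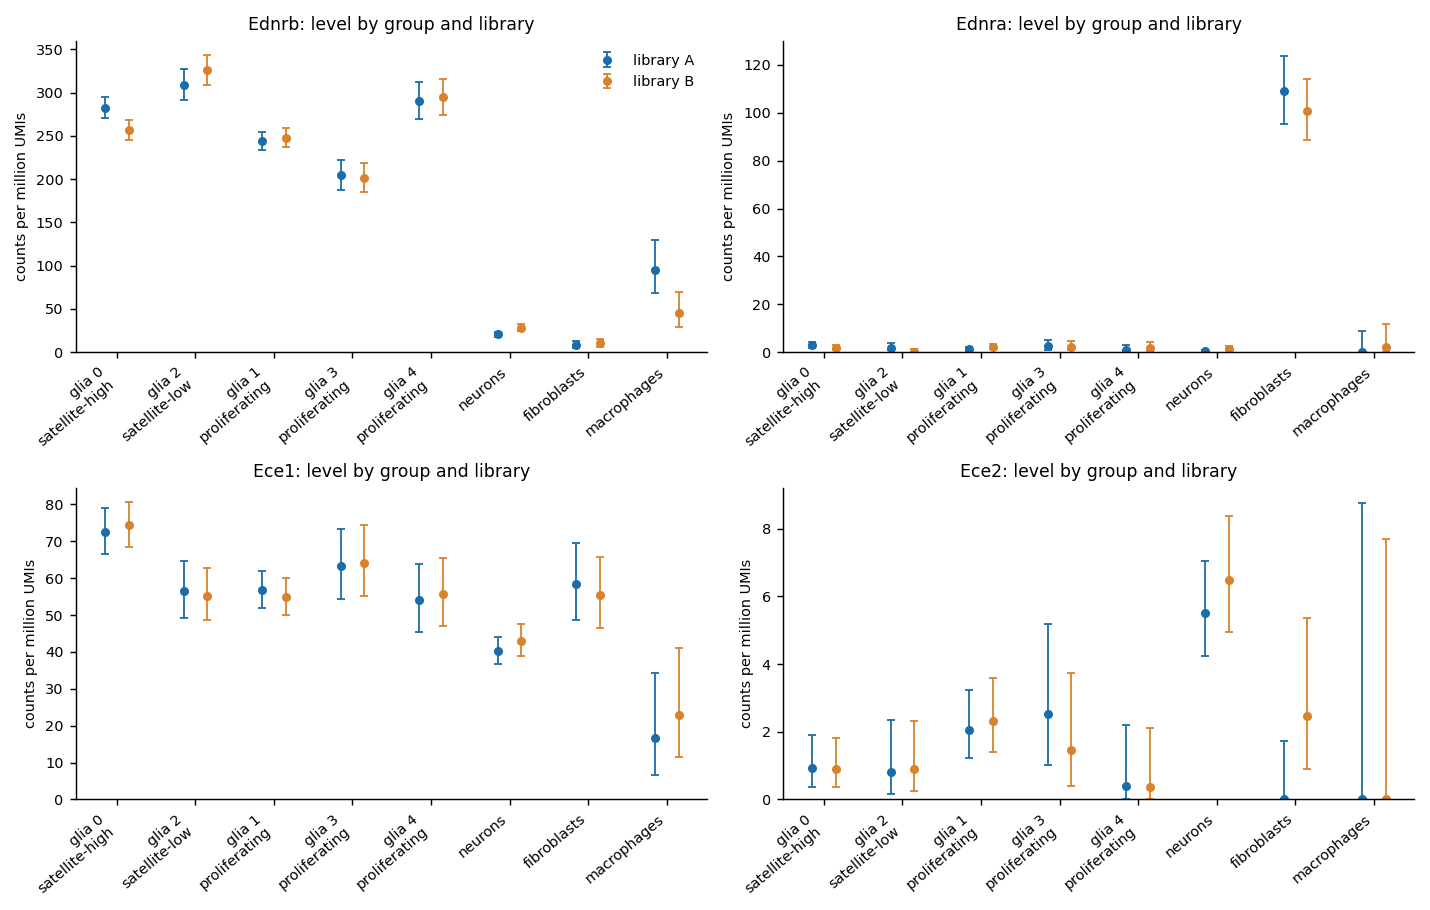
Level of Ednrb, Ednra, Ece1 and Ece2 (CPM, linear axis from 0) in the 5 glial clusters and the other classes, with 1 point for each library and bars for the exact Poisson 95% interval of its count. Ednrb is high in every glial cluster, Ednra in fibroblasts, Ece1 is spread over all classes, and Ece2 lies below 7 CPM everywhere.

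Within the glia, the levels of Ednrb differed little beside the gap to the other classes. In the satellite-low resting cluster it was at 309 CPM in library A and 326 CPM in library B, and in the satellite-high resting cluster at 282 CPM in A and 256 CPM in B. Among the proliferating clusters, the mitotic cluster 4 was at 290 CPM in A and 294 CPM in B. The histone-led cluster 1 was at 244 CPM in A and 248 CPM in B, and the replication-led cluster 3 had the lowest level, 204 CPM in A and 202 CPM in B. The libraries of neighbouring clusters in the order 2, 4, 0, 1, 3 did not overlap, although in A cluster 0 lay close to cluster 4. The exact Poisson intervals of the counts overlapped for most neighbours within a library. In B they were 245 to 268 CPM for cluster 0 and 237 to 259 CPM for cluster 1. Those of clusters 2 and 4 overlapped in A and in B, and those of clusters 4 and 0 in A. Those of clusters 1 and 3 overlapped in neither library. The share of all genes with such an order was not counted, so the order is a description. The proliferating clusters were described by their different leading genes, so any order among them pairs Ednrb with those genes. A link of Ednrb to the phase of the cell cycle was not tested.

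The edgeR fit over the clusters put Ednrb at a log2 difference of 0.32 (standard error 0.04) in the satellite-low against the satellite-high resting cluster. Standard errors given with edgeR estimates are the absolute log2 difference divided by the square root of the F value of the fit. The size differed between libraries on the CPM scale, with 0.13 in A and 0.35 in B. This is the difference that was known when the gene was chosen, and nothing is read from it here. Ece1, the converting enzyme, differed in the other direction between the same clusters, by -0.31 (standard error 0.08), with 72.6 and 74.5 CPM in the satellite-high cluster and 56.6 and 55.3 CPM in the satellite-low cluster of A and B.

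Between the proliferating clusters and the resting ones, each cluster weighted equally, Ednrb had a log2 difference of -0.23 (standard error 0.03). On the CPM scale the difference was -0.28 in A and -0.24 in B. The direction turned under 3 other settings: it was 0.0571 with 3000 variable genes, 0.0577 with 30 dimensions and 0.16 with a mitochondrial limit of 5%, which left a single resting cluster of 708 cells and proliferating clusters of 414 and 229 cells. Ece1 differed by -0.12 (standard error 0.06) and stayed below 0 in each of these settings.

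At matched depth, most glia held no UMI of Ednrb. After each cell was thinned to 2000 UMIs, 36.7% of 4365 glia in library A (exact binomial 95% interval 35.3 to 38.2) and 37.2% of 4896 glia in library B (35.8 to 38.5) held at least 1, and 179 shallower glia were left out. The same share was 2.89% in A and 2.79% in B among fibroblasts, 4.34% and 6.21% among neurons, and 13.5% and 8.70% among macrophages. Without thinning the share was 61.9% ± 1.98 in glia, whose median depth was 4723 UMIs, and 6.61% ± 0.349 in fibroblasts, whose median depth was 11488 UMIs. Intervals cover counting error only.

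The thinned counts per cell were low in every glial cluster. Over all glia, 24.6% ± 0.0501 of cells had 1 UMI of Ednrb, 8.23% ± 0.401 had 2, and 4.22% in A and 4.003% in B had 3 or more. Cells with 3 or more made up 6.24% in A and 6.70% in B of the satellite-low cluster, against 4.80% and 3.36% in the satellite-high cluster and 1.81% and 2.27% in the replication-led cluster. The libraries of the satellite-low cluster lay above those of each other cluster by this measure. It restates the Ednrb counts whose level in that cluster was known when the gene was chosen, so nothing is read from it.

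**Figure D2:**
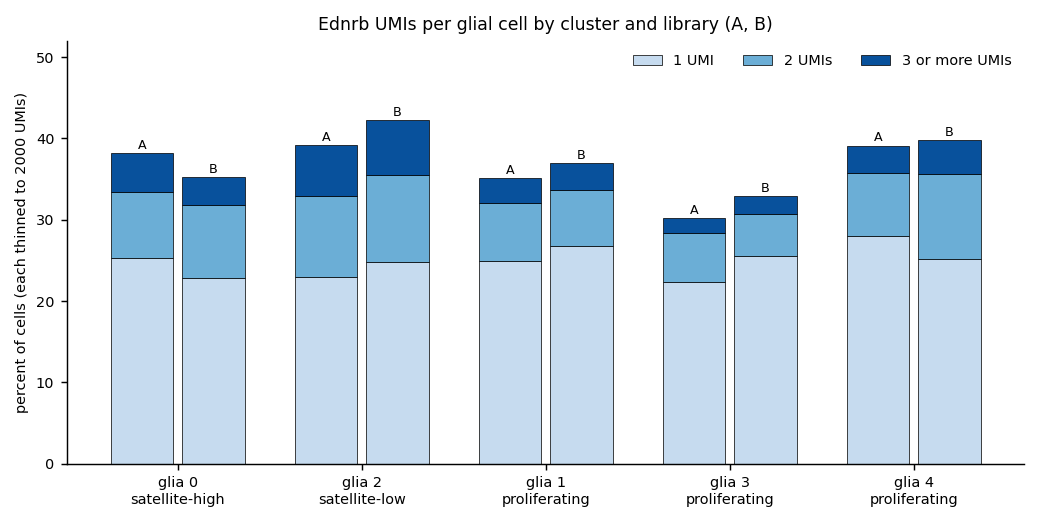
Percent of cells with 1, 2 or 3 or more UMIs of Ednrb (y axis, stacked) in each glial cluster and library, after thinning each cell to 2000 UMIs. The stacks end between 30.2% and 42.2% of cells, and the darkest part, cells with 3 or more, is tallest in the satellite-low cluster of both libraries. The higher level of Ednrb in that cluster was known when the gene was chosen.

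Droplets also carry RNA released by other cells, so the Ednrb found outside glia was set beside 6 of the markers that named the glia (Sox10, S100b, Erbb3, Cdh19, Foxd3 and Fabp7). In fibroblasts Ednrb stood at 3.54% ± 0.517 of its glial level, and the markers at 3.02% to 27.3% with a median of 4.42%. In neurons it stood at 9.30% ± 2.14, and the markers at 8.71% to 95.7% with a median of 11.4%, the highest being S100b, which sensory neurons make themselves. In macrophages Ednrb was at 35.9% in A and 17.4% in B, a mean of 26.6%, and the markers were at 17.4% to 24.7% with a median of 20.4%. In fibroblasts and neurons the share of Ednrb lay within the range of these markers. In macrophages, which had 62 UMIs of Ednrb, it lay above all 6 markers in library A (21.2% to 34.1%) and above 5 of the 6 in library B (11.01% to 17.5%). The part of released RNA in these levels was not tested.

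A small group of neurons stood apart in this measure, by low glia markers and not by a high level of Ednrb. The neurons were split into 9 clusters after the data had been seen, and in 8 of them Ednrb stood below at least 3 of the 6 glia markers. Of these 8, cluster 6 was led by Lyz2 and also by the macrophage genes C1qa and C1qb, and cluster 8 by Mgp, Spp1 and Apoe. In neuron cluster 7 (45 cells, led by genes such as Mustn1, Slc14a1 and Nppb, the last a natriuretic peptide of itch neurons) it stood above all 6. Ednrb was at 25.3 CPM in A (24 UMIs, exact Poisson 95% interval 16.2 to 37.6) and at 19.7 CPM in B (11 UMIs, 9.85 to 35.3), which is 8.51% ± 1.45 of its glial level. The glia markers were at 0.943% to 3.67% of theirs in the same cells, with Sox10 at 4 UMIs and Cdh19 at 3 UMIs. Over all neurons Ednrb was at 9.30% ± 2.14 of its glial level. Its mean CPM was higher than in cluster 7 in neuron clusters 0, 2, 5, 6 and 8, and lower in clusters 1, 3 and 4. In cluster 7 the UMIs of Ednrb came from 20 of the 45 cells, with at most 4 in a cell, at a median depth of 34336 UMIs. Thinned to 2000 UMIs, 1 of its 27 cells in A (3.70%) and 1 of 18 in B (5.56%) held a UMI of Ednrb, which lies within the exact intervals of fibroblasts (0.945% to 6.62% in A, 1.03% to 5.97% in B). In contrast, neuron cluster 4 (78 cells, led by Mrgpra3) had 7 UMIs of Ednrb, 1.01% ± 0.0696 of the glial level. Neuron cluster 7 was singled out after its values were seen and is given without a test.

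**Figure D3:**
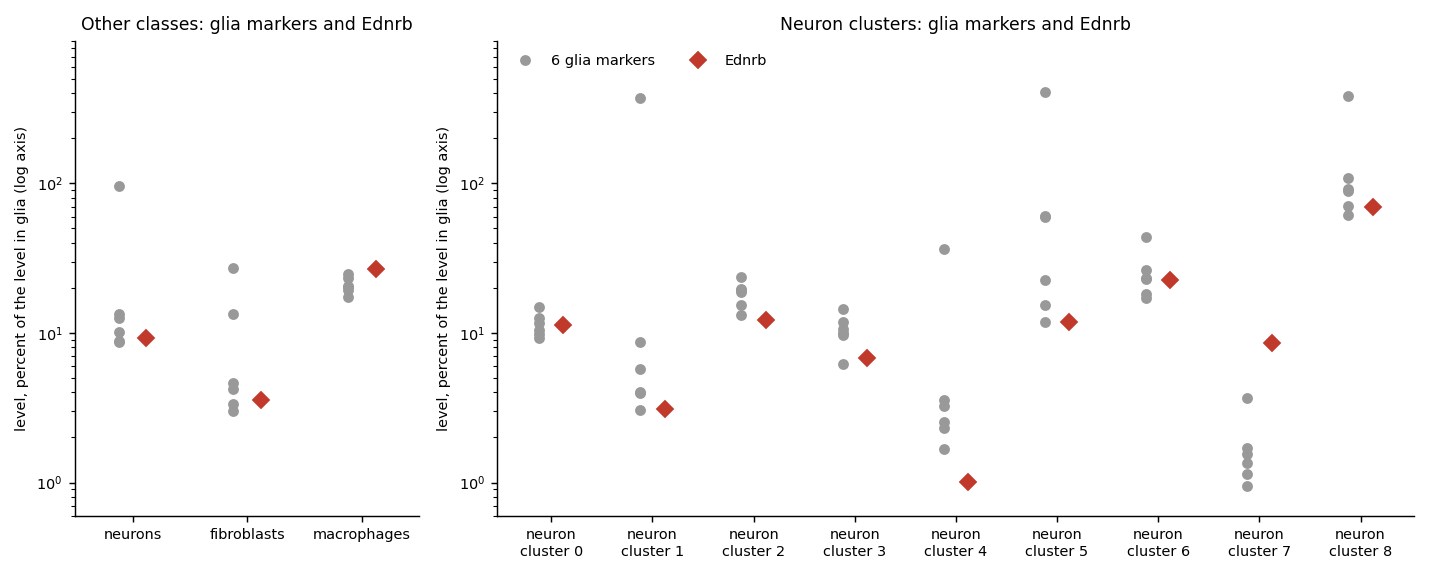
Level in other classes (left) and in the 9 neuron clusters (right) as a percent of the level in glia (log axis, mean of the libraries), for 6 glia markers (grey circles) and Ednrb (red diamonds). Ednrb lies within or below the grey circles except in macrophages, where its mean of 26.6% is just above them, and in neuron cluster 7, where it is at 8.51% and the circles at 0.943% to 3.67%.

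The genes whose pattern over the 8 groups was most like that of Ednrb were glial ones. Pearson's r of log2(CPM + 1) over 16 points, the 8 groups in both libraries, was 0.993 for Foxd3, a neural crest transcription factor, and 0.992 for Erbb3, the neuregulin receptor. It was 0.990 for Arhgef26, 0.988 for Gjc3, a glial connexin, and 0.988 for Insc. These points share libraries and cells and 9531 genes were compared, so r is a description. Foxd3 and Erbb3 also helped to name the glia.

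Ednra showed the opposite distribution. It was at 109 CPM in the fibroblasts of library A (233 UMIs) and at 101 CPM in those of library B (245 UMIs), and these 395 cells held 478 of the 593 Ednra UMIs in kept cells. Glia were at 1.97 CPM in A and 1.67 CPM in B, neurons at 0.516 CPM and 1.54 CPM, and macrophages at 0 and 2.08 CPM. Neighbours in the order of the glial clusters, macrophages and neurons overlapped between libraries, and fibroblasts did not overlap with any of them. After thinning to 2000 UMIs, 16.8% of fibroblasts in A (interval 11.5 to 23.2) and 24.2% in B (18.6 to 30.5) held a UMI of Ednra, against 0.206% and 0.225% of glia.

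The glial level of Ednra was 1.73% ± 0.103 of that in fibroblasts. The 8 fibroblast markers ranged from 0.0460% (Dcn) to 71.8% (Col1a2), with a median of 1.54%. Ednra lay above Dcn, Pdgfra (0.112%), Mgp (0.140%) and Lum (0.339%), and below Pi16 (2.75%) and the collagen genes Col1a1, Col3a1 and Col1a2. The part of released RNA in the Ednra of glia was not tested. Because Ednra is a known gene of vascular mural cells, the fibroblasts were also searched for 8 pericyte and smooth muscle genes. All 8 had UMIs there, with a sum of 305 ± 32.0 CPM, of which Pdgfrb, also a fibroblast gene, gave 184 ± 0.334 CPM. Rgs5, the pericyte gene, was at 10.2 ± 4.02 CPM. In the 318 fibroblasts with no UMI of Rgs5, Kcnj8, Abcc9, Notch3, Des or Myh11, Ednra was at 89.6 CPM in A and 97.4 CPM in B. In the other 77 it was at 175 CPM in A and 118 CPM in B. This split left out Pdgfrb and Acta2, taken as genes that fibroblasts share. A cell can lack a UMI of a scarce gene that it expresses, and the part of mural cells in the Ednra of this class was not tested.

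By the same measure of likeness, Ednra was closest to Twist1, a transcription factor of mesenchymal cells (r = 0.982), and to A2m, a protease inhibitor (r = 0.971). Lum, a proteoglycan of connective tissue and one of the fibroblast markers, followed with r = 0.967, then Foxc1 with 0.967 and Crispld1 with 0.965. The r of Ednra with Sox10 was -0.64.

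The ligands were almost absent from the cultures. Edn1 (ENSMUSG00000021367, plus strand, chr13:42301476-42307990) had 8 UMIs in all kept cells, 1 in library A and 7 in library B, and all were in glia. They came from 6 cells, 1 of which held 3. Its antisense gene, Gm47118, had 0 UMIs. Edn3 (ENSMUSG00000027524, plus strand, chr2:174760619-174784042) had 3 UMIs, 1 in each of 3 fibroblasts of library A. Edn2, the remaining endothelin gene, had 0 UMIs in the 10948 barcodes.

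Where no UMI was seen, the count sets a limit. A count of 0 allows up to 0.0581 CPM of Edn3 in glia, 0.145 CPM of Edn1 or Edn3 in neurons and 0.656 CPM of Edn1 in fibroblasts, and a looser 3.33 CPM in macrophages, from 3 counts over both libraries. The 83 macrophages had the fewest UMIs in total, 900768, and a level below that limit was not detectable there. Endothelial cells, the classical source of endothelin-1, had no cluster of their own, and their 8 markers summed to 16.3 ± 0.0458 CPM in glia, with Cldn5 at 0 UMIs and Cdh5 at 1 UMI. In fibroblasts the sum was 92.7 ± 1.49 CPM, of which Cdh5 gave 51.8 ± 1.80 CPM while Pecam1 had 4 UMIs.

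Ece1, which cuts the precursor to the active peptide, was found in every class. It was at 62.0 CPM in A and 61.9 CPM in B in glia, 58.4 CPM and 55.5 CPM in fibroblasts, 40.2 CPM and 43.0 CPM in neurons, and 16.6 CPM and 22.9 CPM in macrophages. The satellite-high resting cluster was highest, as above, followed by the replication-led cluster 3 with 63.3 CPM and 64.3 CPM. Fibroblasts and glial clusters 2, 1 and 4 overlapped between libraries and lay from 54.0 CPM to 58.4 CPM. Neurons and then macrophages lay below all of these. Ece1 (ENSMUSG00000057530, plus strand, chr4:137862237-137965229) overlaps an antisense gene, Gm13012, which had 1 UMI in all kept cells.

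The direction of Ece1 between fibroblasts and glia depended on the scaling. The CPM ratio was -0.12 ± 0.05 on the log2 scale and the edgeR estimate 0.30 (standard error 0.11). For neurons the CPM ratio was -0.57 ± 0.07 and the edgeR estimate -0.15 (standard error 0.07). In both comparisons edgeR, which left the clustering genes out and rescaled the libraries, sat 0.42 to 0.43 above the CPM ratio for Ece1. Ednrb kept its direction on either scale, with edgeR estimates of -3.02 (standard error 0.07) in neurons and -4.39 (standard error 0.14) in fibroblasts. Ednra in fibroblasts did so too, at 6.26 (standard error 0.15). DESeq2 gave larger standard errors, 0.24 for Ednrb in neurons, 0.32 for Ednrb in fibroblasts and 0.50 for Ednra in fibroblasts.

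After thinning, 11.9% of glia in A and 12.0% in B held a UMI of Ece1, against 10.98% and 11.6% of fibroblasts, 9.88% and 9.04% of neurons, and 5.41% and 4.35% of macrophages. The intervals of glia, fibroblasts and neurons overlapped, although neurons and fibroblasts lay below glia in both libraries. Overlap of intervals is not a test, and the shares were not tested against each other. The genes most like Ece1 over the groups were Slc35a2, a nucleotide sugar transporter (r = 0.978), Mageh1 (r = 0.972), Strn3 (r = 0.970), Casc4 (r = 0.966) and Sec62, a part of the protein import machinery of the endoplasmic reticulum (r = 0.954). None of them marks a class used here.

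Ece2, the related enzyme known from neural tissue, was scarce, with 201 UMIs in kept cells. Neurons had 5.51 CPM in A (64 UMIs) and 6.49 CPM in B (59 UMIs), and glia 1.42 CPM and 1.37 CPM (36 UMIs in each library). Fibroblasts had 0 and 6 UMIs in A and B, and macrophages none. The glial level was 23.4% ± 3.28 of the neuronal one, and the 10 neuron markers were in glia at 0.434% to 4.20% of theirs. Among glia, cluster 1 had 2.05 CPM and 2.32 CPM and cluster 3 had 2.52 CPM and 1.46 CPM. The resting clusters lay between 0.801 CPM and 0.924 CPM in either library, and the mitotic cluster 4 was lowest, with 0.397 CPM and 0.379 CPM from 1 UMI in each library. In neurons, at matched depth, 1.20% of cells in A and 1.98% in B held a UMI, against 0.206% and 0.245% of glia. Ece2 (ENSMUSG00000022842, plus strand, chr16:20629828-20646485) overlaps another gene on the same strand, Gm49333, which had 0 UMIs. Reads that both genes could claim may not have been counted, so the level of Ece2 is uncertain.

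Genes of the pathway around the members were taken from a list of 43, of which 34 had enough counts in each comparison. A gene was called when edgeR's quasi-likelihood test gave a Benjamini-Hochberg adjusted p under 0.05 and the fold was at least 1.5. The clusters compared were drawn from the same cells, so a call describes how far groups lie apart relative to the spread between libraries and is not an independent test of a difference between cell types.

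In the satellite-low against the satellite-high resting cluster, 3 list genes were higher (5.16% of the 10073 genes tested were) and 5 were lower (6.59% of the genes tested). The highest was Pax3, a neural crest regulator, at 6.14 CPM and 5.46 CPM in the satellite-low cluster and 0.396 CPM and 0.127 CPM in the satellite-high cluster of A and B (log2 difference 4.43, standard error 0.54). Mme, the peptidase neprilysin of the family of Ece1, was 1.11 higher (standard error 0.23). Furin, which makes the first cut in the endothelin precursors, was 0.87 higher (standard error 0.08), with 70.8 CPM and 69.8 CPM against 39.7 CPM and 41.9 CPM.

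The lower genes were Plcb4 (-1.38, standard error 0.12) and Plcb3 (-0.63, standard error 0.11), phospholipases that Gq-coupled receptors activate, the convertase Pcsk5 (-0.83, standard error 0.15), and Slc1a3 (-2.50, standard error 0.38) and Gja1 (-1.06, standard error 0.14), a glutamate transporter and connexin 43. Slc1a3, Gja1 and Glul were also in the satellite gene list that told these clusters apart, and without them 3 of 31 genes were higher and 3 lower. None of the 7 G protein subunits or of the 6 receptor kinases and arrestins was called. Over the list the median log2 difference was -0.03, and over all genes tested 0.03. In this comparison Furin stood at 0.87 and Ece1, a member and not tested, at -0.31. The convertases did not share a direction, with Pcsk5 at -0.83 and Pcsk7 at 0.20 and not called. The ligand genes whose precursors these enzymes cut had almost no UMIs in glia.

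In the proliferating against the other glial clusters, 3 list genes were higher (7.46% of genes tested) and 3 lower (4.82% of genes tested). Itpr1, a calcium channel of internal stores, was 0.89 higher (standard error 0.26), Grk6, a receptor kinase, 0.86 (standard error 0.09), and Slc1a3 0.78 (standard error 0.27). Grk3 was at -0.78 (standard error 0.23), Furin at -0.73 (standard error 0.07) and Ret, a growth factor receptor, at -0.72 (standard error 0.31). Ret was far higher in neurons than in glia (log2 difference 7.64). The 10 neuron markers summed to 247 ± 35.1 CPM in proliferating glia and 342 ± 49.5 CPM in other glia. The part of released neuronal RNA in the Ret of glia was not tested. Furin had 25.9 CPM and 27.5 CPM in cluster 1 and 28.2 CPM and 31.1 CPM in cluster 4, but 40.3 CPM and 40.9 CPM in cluster 3, close to the satellite-high cluster. The list median was 0.00 and the median of all genes tested -0.00. The calls of this comparison were few and moved with the settings, with 1 to 11 higher and 1 to 10 lower under the alternatives.

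**Figure D4:**
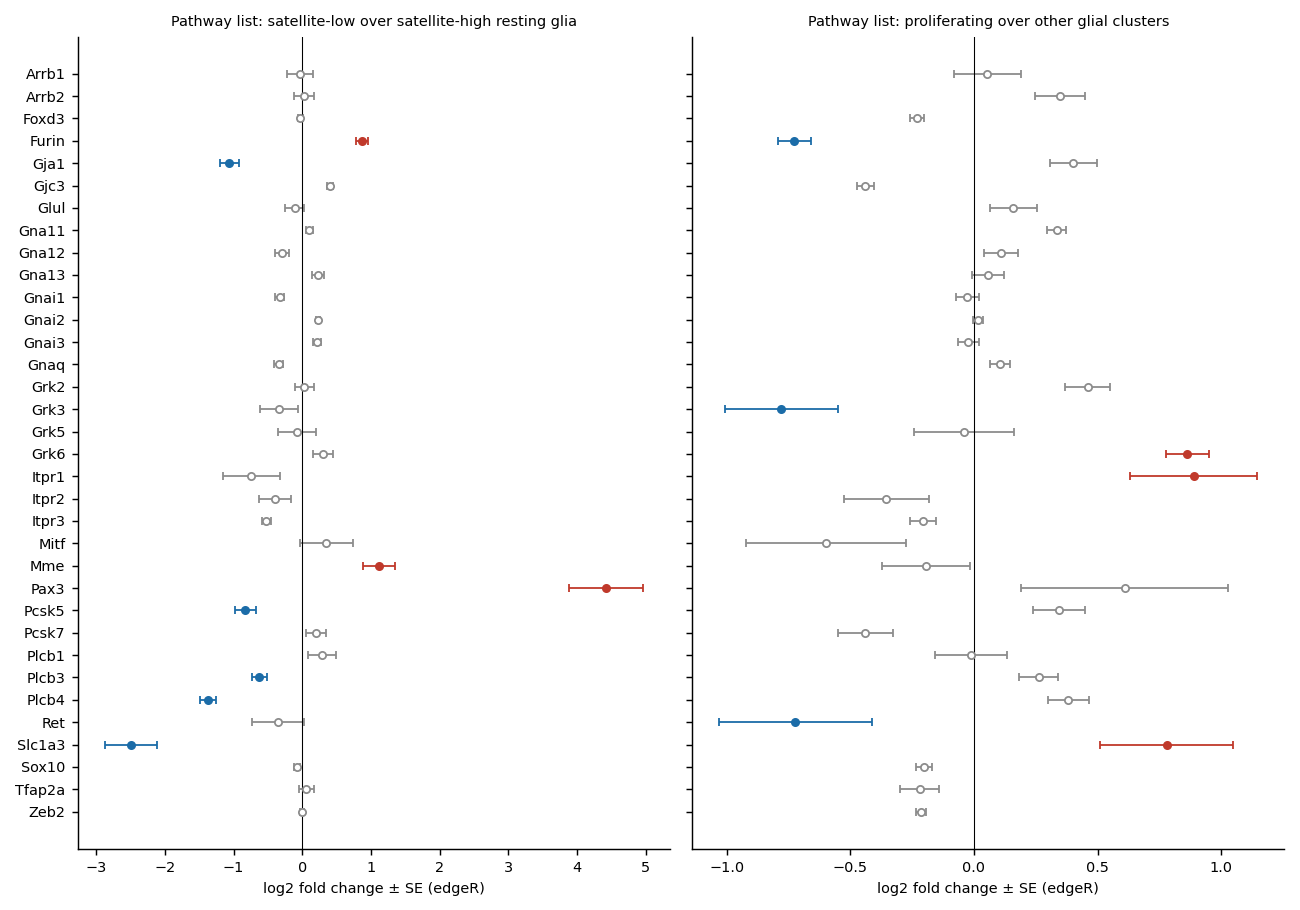
Log2 fold change (x axis) with its standard error for the 34 tested list genes in the satellite-low over the satellite-high resting cluster (left) and in the proliferating over the other glial clusters (right). Filled red and blue points are genes called higher and lower, open points were not called, and the left axis spans a wider range because of Pax3 at 4.43.

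Neurons differed from glia in most of the list, as they did in most genes. Of the 34 list genes, 13 were higher in neurons (36.1% of the 11802 genes tested) and 14 lower (26.7% of genes tested). The highest was Ret at 384 CPM in A and 395 CPM in B, against 2.80 CPM and 2.43 CPM in glia (7.64, standard error 0.08). Ecel1, an enzyme of the Ece1 family that is known from neurons, was at 89.0 CPM and 116 CPM against 0.945 CPM and 0.647 CPM (7.42, standard error 0.11). Arrb1, an arrestin, was 4.55 higher (standard error 0.07), Glul 2.39 (standard error 0.06) and Gnaq, a G protein subunit that endothelin receptors use, 1.77 (standard error 0.05). Of the 6 receptor kinases and arrestins 4 were higher, and of the 7 G protein subunits 4 were higher and 1 lower.

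The genes lowest in neurons relative to glia were Mme (-3.89, standard error 0.38), Gjc3 (-3.35, standard error 0.08), Gja1 (-3.32, standard error 0.17), Tfap2a (-3.15, standard error 0.15) and Foxd3 (-3.10, standard error 0.07). Ednrb, at -3.02, lay beside them. Sox10 and Foxd3 named the glia, and without them 13 of 32 genes were higher and 12 lower. The list median was -0.08 and that of all genes tested 0.18.

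In fibroblasts against glia, 9 list genes were higher (20.8% of genes tested) and 14 lower (19.8% of genes tested). Slc1a3 was at 98.2 CPM and 87.6 CPM in fibroblasts of A and B and at 6.38 CPM and 5.10 CPM in glia (4.44, standard error 0.13). Mitf, a transcription factor, followed at 2.75 (standard error 0.29), then Itpr1 at 2.32 (standard error 0.27), Itpr2 at 2.19 (standard error 0.20) and Gja1 at 1.46 (standard error 0.12). Foxd3 (-4.48, standard error 0.13), Gjc3 (-4.35, standard error 0.17), Sox10 (-4.15, standard error 0.14), Tfap2a (-4.14, standard error 0.35) and Gnai1 (-2.55, standard error 0.15) were lowest. Without Sox10 and Foxd3, 9 of 32 were higher and 12 lower. The list median was 0.13, against 0.01 over all genes tested.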

How the data were processed

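The authors deposited gene by cell matrices of raw UMI counts, made from 10x Chromium v3 libraries with Cell Ranger 3.0.2 per the submitters' notes (the matrix headers name 3.1.0) on mm10. The members and lists were chosen with earlier results of these data known. Counts were taken from cells with at least 200 genes and at most 10% mitochondrial UMIs. Scrublet called 2 and 3 doublets, too few to be of use, so none were removed. Cells were clustered with Seurat 5.3.0 (2000 variable genes, 20 dimensions, resolution 0.18), holding out the members and the list genes. For glia the satellite and Schwann cell genes and the division genes Top2a and Mki67 were held out too. The other 95 cell cycle genes were not held out and could shape the glial clusters. A class was named by the marker list most raised in it. A glial cluster was called proliferating when at least 5 of its 50 leading genes were cell cycle genes; this rule, and leaving clusters under 100 cells out of comparisons, were set with the data in hand. UMIs were summed per cluster and library and scaled to CPM. These sums went into edgeR 4.0.16 (TMM scaling, library as a term, 4 residual degrees of freedom for glia and 3 for classes), over genes not used in clustering. The test was also run on simulated counts with known changes. These were drawn around the glial means with a fixed spread and no library effect, and no result here rests on them. Named were all members, up to 5 called list genes per direction and comparison with the largest fold, and for each member at 20 CPM or more the 5 genes with the highest r. Gene positions are from GENCODE M21, promoters from RefSeq. DESeq2 1.42.0 was an alternative. UMI totals were 40355401 in A and 38945848 in B. Protein sequences were not used here, and some glia markers used for naming are not reported here.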

Additional observations from a re-analysis of the deposited data

How the results depend on the processing

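The levels of Ednrb and Ece1 in glia and of Ednra in fibroblasts moved little. With a mitochondrial limit of 5%, Ednrb was at 260.4 CPM and Ece1 at 58.4 CPM in glia. Ece2 in neurons moved more, to 4.59 CPM with that limit, below its main level in either library (5.51 CPM in A and 6.49 CPM in B). That limit left glial clusters of 708, 414 and 229 cells. Without the 5% of cells with the highest Scrublet score, Ednrb was at 266 CPM and Ece1 at 62.0 CPM in glia, and Ece1 at 54.8 CPM in fibroblasts. With clusters drawn from one part of each cell's UMIs and values from the rest, Ece1 was at 61.2 CPM in glia. In fibroblasts without mural UMIs, an alternative added after seeing the data, Ednra was at 93.5 CPM. Shares followed depth: at 1000 UMIs they were 22.3% for Ednrb and 5.999% for Ece1 in glia and 9.71% for Ednra in fibroblasts, at 3000 UMIs 48.4% and 17.2% for Ednrb and Ece1, and unthinned 61.9%, 27.6% and 56.0%.

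The proliferating against resting difference of Ednrb (log2 -0.23) turned to 0.0571 with 3000 variable genes, 0.0577 with 30 dimensions and 0.16 with the 5% mitochondrial limit; the cause was not tested. It was -0.26 with at least 1000 genes, -0.15 with cells pooled, -0.27 with split UMIs, -0.13 with only members held out and -0.0905 without high Scrublet scores. That of Ece1 was -0.12 under each library alone, with DESeq2, without a filter and without the library term. It was -0.10 with 30 dimensions, -0.17 with 3000 variable genes, with cells pooled, with split UMIs and at resolution 0.3, -0.13 with at least 1000 genes, -0.34 with the 5% mitochondrial limit, and -0.19 with only members held out or without high Scrublet scores. Between resting clusters, Ednrb was at 0.49 with 3000 variable genes or without high Scrublet scores, and ranged from 0.21 to 0.43 with 1 library left out. Ece1 was there at -0.41 with 30 dimensions, -0.39 with 3000 variable genes, at least 1000 genes or only members held out, and -0.37 at resolution 0.3. The 5% mitochondrial limit left 1 resting cluster, so this comparison could not be made with it.

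Of the list calls, proliferating glia had 11 higher and 10 lower without a fold limit, 1 higher and 1 lower with split UMIs, 1 higher with only members held out, and 1 lower with DESeq2 or the 5% mitochondrial limit. The resting comparison had 7 higher and 9 lower without a fold limit, and 5 to 8 lower with 1 library left out, by fold alone. Neurons had 8 higher with the 5% mitochondrial limit. With 2 libraries of 1 condition, error is poorly known, and low counts limit Ece2, Edn1 and Edn3.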

Other observations

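In glia thinned to 2000 UMIs, 4.24% of cells in library A and 4.72% in library B held UMIs of both Ednrb and Ece1. Among glia with a UMI of Ece1, 35.5% in A and 39.3% in B also held Ednrb, against 36.9% of the glia without Ece1 in either library, so the libraries went opposite ways.

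Ecel1, the neuronal relative of Ece1, was uneven among the neuron clusters. It was at 199.8 ± 43.4 CPM in cluster 0 (206 cells, led by Anxa1), 197 ± 48.5 CPM in cluster 7 and 161 ± 28.4 CPM in cluster 2 (91 cells, led by Penk). It was at 26.4 ± 6.80 CPM in cluster 1 (151 cells, led by S100b) at 81.1 ± 32.6 CPM in cluster 5 (68 cells with a median depth of 1226 UMIs, 13 UMIs of Ecel1), and under 10 CPM in clusters 3, 4, 6 and 8. Ece1 was at 59.0 CPM in A and 59.2 CPM in B in cluster 7. It was at 11.6 CPM and 29.6 CPM in cluster 6, whose leading genes included Lyz2, C1qa, C1qb and Tyrobp, genes of macrophages, the class with the lowest level of Ece1. The part of macrophage RNA in cluster 6 was not tested. Neuron cluster 8 (31 cells), where the glia markers stood at a median of 90.4% of their glial level and Ednrb at 69.5% ± 17.2, had a median depth of 4899 UMIs, against 28304 over all neurons.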
